A study of Mus musculus with 22 samples.

Results

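Binding of HA-tagged artificial transcription factors was compared between reprogramming cells that carried the factors and cells that carried an empty vector, by chromatin immunoprecipitation with sequencing (ChIP-seq) against the HA tag. The 4 HA libraries of the series, of 22 samples in all and 16 with a peak file, were taken by their labels. The C2+SKM cells had received the 3 zinc-finger artificial factors ZFATF1, ZFATF2 and ZFATF3 together with Sox2, Klf4 and c-Myc, and were harvested at day 20 (C2, 2 libraries). The Empty+SKM cells had received the empty vector with the same Sox2, Klf4 and c-Myc (Empty, 2 libraries). The labels call both groups early cells, and no day of harvest is given for Empty. All cells derived from embryonic fibroblasts of C57BL/6 mice, and 25000000 cells were fixed in 1.5% formaldehyde for each HA sample. No HA sample carried added Oct4. The factor genes were delivered by transduction, and per the study's design text the C2+SKM cells were only part of the way through reprogramming and still made the artificial factors. Whether the libraries of a group came from separate cultures is not labelled, so any spread between them may be technical. The peak files hold no expression values, so neither the cell type nor the presence of the tagged proteins could be checked from them.

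Zinc-finger artificial factors join an array of DNA-binding fingers, built to read a chosen short sequence, to an effector domain. The HA tag is a short peptide that an antibody recognises, so one antibody can pull down DNA bound by any tagged protein. Cells without a tagged protein show which regions the antibody, the beads or the genome itself return as background. H3K9me3, a histone mark of silenced heterochromatin, and H3K27ac, a mark of active promoters and enhancers, were mapped by the study in finished induced pluripotent stem (iPS) cells. Those maps describe a later state than the HA libraries.

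Listed gene starts were nearly free of HA peaks, so the few that had them are shown first, with 1 window for each kind of region compared below. The windows span 250 bases before to 50 after a start in the RefSeq table (build GRCm38.p6, the same assembly as the mm10 of the files). Capitals mark the bases that lie under the merged HA region. The Gm38579 window (chr9:50392339-50392638, minus strand) was touched by a region with a peak in both C2 and in neither Empty library. The Zfp317 window (chr9:19621841-19622140, plus strand), at the start of a zinc-finger gene, was touched by a region with a peak in both Empty and in neither C2 library. The Gm46074 window (chr8:20649078-20649377, plus strand) lay within a region with a peak in all 4 libraries.
Gm38579: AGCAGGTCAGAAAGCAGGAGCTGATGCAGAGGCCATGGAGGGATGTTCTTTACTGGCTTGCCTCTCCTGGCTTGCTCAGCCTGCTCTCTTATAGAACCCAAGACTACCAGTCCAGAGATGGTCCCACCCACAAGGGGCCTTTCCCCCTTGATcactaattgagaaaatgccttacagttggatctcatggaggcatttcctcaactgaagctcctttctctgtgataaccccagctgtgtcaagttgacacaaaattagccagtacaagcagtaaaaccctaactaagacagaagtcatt
Zfp317: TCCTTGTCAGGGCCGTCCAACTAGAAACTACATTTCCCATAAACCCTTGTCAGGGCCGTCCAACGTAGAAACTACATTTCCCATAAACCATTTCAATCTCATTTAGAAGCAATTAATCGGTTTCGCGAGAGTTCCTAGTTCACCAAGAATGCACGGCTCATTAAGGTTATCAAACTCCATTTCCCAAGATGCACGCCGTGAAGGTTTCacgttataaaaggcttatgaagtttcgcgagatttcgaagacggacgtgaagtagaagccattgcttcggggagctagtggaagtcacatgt
Gm46074: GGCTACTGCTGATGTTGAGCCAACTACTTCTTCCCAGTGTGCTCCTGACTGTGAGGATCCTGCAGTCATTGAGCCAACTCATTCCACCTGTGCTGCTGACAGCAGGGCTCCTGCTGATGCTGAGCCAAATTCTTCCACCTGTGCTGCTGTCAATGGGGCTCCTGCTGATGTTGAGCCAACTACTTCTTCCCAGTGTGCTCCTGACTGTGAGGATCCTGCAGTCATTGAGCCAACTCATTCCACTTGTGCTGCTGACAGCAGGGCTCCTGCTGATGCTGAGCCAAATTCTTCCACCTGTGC
In the Gm38579 window 152 of 300 bases lay under the region, and in the Zfp317 window 208 did. In both windows 0 bases lay under peaks of both libraries of the group, since the peak of only 1 library reached them. All 300 bases of the Gm46074 window lay under peaks of all 4 libraries. The Gm46074 window repeats itself: shifted by 156 bases, it matched itself at 98.6% of positions. Among 31396 promoter windows, 32 (0.102%) reached 70% at any shift of 20 to 200 bases. The other windows touched by such regions belonged to Gm35240 in C2 (17 bases under the region) and to Gm41479 in Empty (300 bases). Under peaks of both libraries of the group lay 0 bases of the Gm35240 window and 231 of the Gm41479 window.

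Both C2 libraries kept more tags than both Empty libraries, while the numbers of peaks overlapped between the groups. Of 30141416 and 46426379 sequenced tags in C2 and 25985373 and 26446397 in Empty, the authors' peak caller kept 2506011 and 3896935 in C2 and 1707437 and 1629753 in Empty. Between 92% and 94% of tags were duplicates at one position and were dropped, by the redundant rates of 0.92 and 0.92 in C2 and 0.93 and 0.94 in Empty in the file headers. The peaks on chromosomes 1 to 19 numbered 11017 and 39617 in C2, against 9492 and 20022 in Empty. The second library of each group had the most peaks, and per 1000000 tags kept there were 4396 and 10166 in C2, against 5559 and 12285 in Empty. Same-numbered C2 and Empty libraries were called against the same input library, per the file headers.

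HA peaks were weak and of like median fold enrichment in both groups. The pileup is the number of overlapping fragments at a peak's summit, and its median was 8 and 8 in C2, against 6 and 6 in Empty. The authors' fold enrichment is a ratio of that pileup, with a constant added, to the local background. Equal pileups gave unlike ratios between libraries. In a region with a peak in every library (chr1:4565103-4566012), a pileup of 8 gave 6.46 and 5.93 in C2 and 7.15 in the second Empty library. The median fold enrichment was 5.92 and 5.93 in C2, against 5.90 and 5.56 in Empty. Both C2 medians lay above both Empty medians, by a mean difference of 0.198, and an exact permutation test gave a two-sided p = 0.333, the smallest possible with 2 libraries against 2. Peaks with a fold enrichment of 10 or more numbered 132 and 180 in C2, against 133 and 187 in Empty. The highest fold enrichment was 21.3 and 21.1 in C2, against 28.0 and 38.0 in Empty, so both Empty libraries reached higher.

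**Figure D1:**
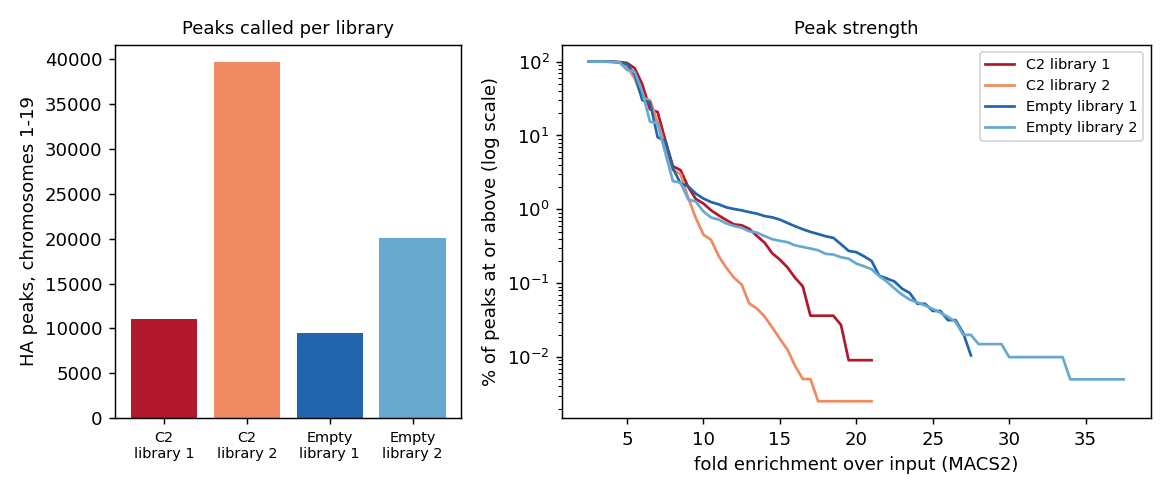
Number of HA peaks per library (left, bars from 0) and percent of a library's peaks at or above each fold enrichment (right, log vertical axis), on chromosomes 1 to 19 for the 2 C2 and 2 Empty libraries. At a fold enrichment of 6 or more lie 49.1% and 32.4% of C2 peaks, against 30.1% and 39.0% of Empty peaks. At the high end both Empty curves run farther right, to 28.0 and 38.0, than the C2 curves, which end at 21.3 and 21.1.

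Few regions carried HA peaks in both C2 libraries and in neither Empty library. Merging peaks that overlapped by at least 1 bp gave 60069 regions, of which 45235 (75.3%) had a peak in 1 library only. A peak in both C2 and neither Empty library was found at 2560 regions (C2-only), which is 4.26% of all regions. The reverse, a peak in both Empty and neither C2 library (Empty-only), was found at 744 regions, or 1.24%. A peak in all 4 libraries was found at 548 regions, or 0.912%. Of the 4798 regions with a peak in both C2 libraries, 46.6% also had a peak in at least 1 Empty library. Of the 2326 regions with a peak in both Empty libraries, 68.0% also had one in at least 1 C2 library. These are counts of a thresholded list and were not tested: a region without a peak in a library has no value there, and a peak list cannot separate fewer bound cells from less binding per cell.

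Whole peak lists, which differ in length from 9492 to 39617 peaks, overlapped as follows. The first C2 library's peaks were overlapped at 42.9% by the second C2 library, at 25.1% by the second Empty library and at 11.8% by the first. The second C2 library's peaks were overlapped at 12.2% by the first C2 library and at 20.7% by the second Empty library. The first Empty library's peaks were overlapped at 37.9% by the second C2 library and at 22.7% by the second Empty library. The second Empty library's peaks were overlapped at 39.9% by the second C2 library and at 10.6% by the first Empty library. In 3 of the 4 libraries, then, the list most often overlapping came from the other group. In each library the longest of the other lists overlapped most and the shortest least. The second C2 and second Empty libraries, which hold the longest list of each group and share an input, had 5172 regions to themselves, more than the 2560 of the C2 pair. The part of list length and of the shared input in these counts was not tested.

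**Figure D2:**
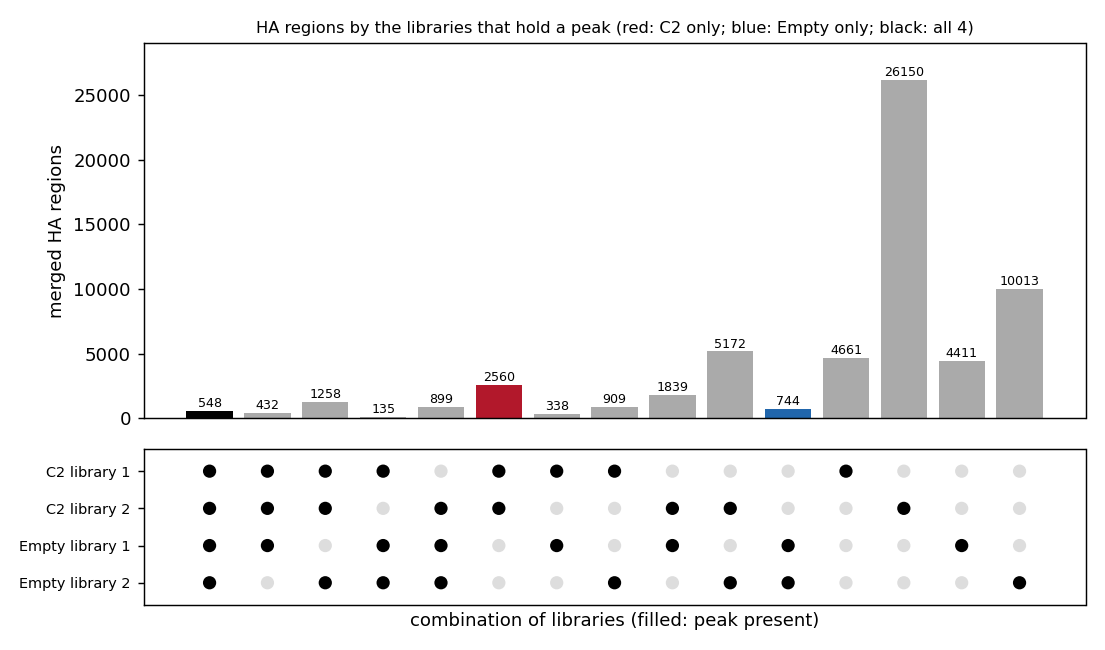
Number of merged HA regions (bars from 0) for each combination of the 4 libraries that hold a peak (filled circles below). The bar of the 2 second libraries alone (5172 regions) is higher than C2-only in red (2560) and Empty-only in blue (744), and the 4 bars at the right are regions found in 1 library.

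With equal numbers of the strongest peaks, a pair of libraries from 1 group overlapped only slightly more than a mixed pair. With the 1000 peaks of highest -log10 p-value from each library, the overlap was 18.45% for the C2 pair and 18.35% for the Empty pair, against 16.6% to 18.05% for the 4 pairs of a C2 with an Empty library. Overlap within groups exceeded overlap between groups by 1.05 percentage points, where the SD over the 4 mixed pairs was 0.649. With 9492 peaks each, the size of the smallest list, the difference was 0.508 points and the Empty pair, at 12.7%, lay inside the range of the mixed pairs, 12.5% to 15.6%. The C2 pair, at 16.1%, lay above all 4 mixed pairs at that number.

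Ranked by fold enrichment in place of the p-value, the C2 pair of 1000 peaks overlapped at 13.15%, at the bottom of the range of the mixed pairs (13.15% to 16.0%), and the Empty pair at 17.5%, above it. Ranked by pileup, the C2 pair overlapped at 24.55%, above the mixed pairs (19.7% to 21.45%), and the Empty pair, at 20.5%, lay within their range. The place of the C2 pair above the mixed pairs was therefore lost when ranked by fold enrichment. It held when ranked by pileup and by p-value, there also with 500, 2000 and 5000 peaks each.

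Regions were also counted in equal numbers of peaks. At 1000 peaks each, 32 regions were C2-only, 21 were Empty-only, and 11 to 23 were found in 1 C2 and 1 Empty library and no other, for the 4 such combinations. At 9492 peaks each, 869 were C2-only and 628 were Empty-only, against 649 to 819 for the mixed combinations. The C2-only count was above every mixed count at both numbers, and the Empty-only count was within or below their range. At 500 peaks each, 12 regions were C2-only and 13 were Empty-only, and both counts lay above the mixed counts of 3 to 8. The -log10 p-value of the weakest of the 1000 peaks was 11.7 and 13.7 in C2, against 10.5 and 12.5 in Empty, so equal numbers did not mean equal strength.

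**Figure D3:**
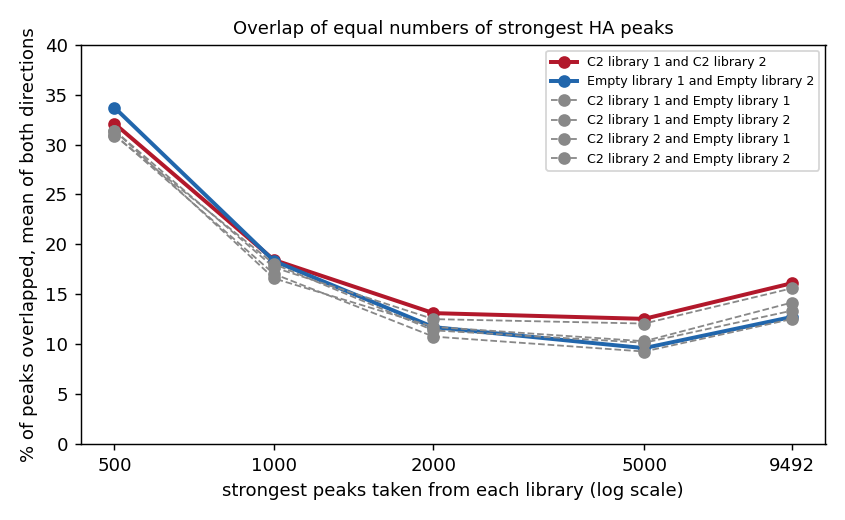
Overlap of equal numbers of strongest HA peaks (vertical axis, mean of both directions in percent) against the number taken from each library (log horizontal axis), for the C2 pair (red), the Empty pair (blue) and the 4 mixed pairs (dashed grey). At 1000 peaks the C2 and Empty pairs sit at 18.45% and 18.35%, just above the mixed pairs at 16.6% to 18.05%, and at 9492 peaks only the C2 pair lies above all mixed pairs.

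The C2-only regions were not stronger than other HA regions. Their median fold enrichment was 5.92 in the first and 5.93 in the second C2 library, the same as the medians over all peaks of those libraries, and their median pileup was 8 in each. The summits of the C2 libraries lay a median of 144.5 bp apart, and 20.4% lay within 50 bp of each other. In Empty-only regions the distance was 140 bp and the share 20.7%, and in the 4 mixed combinations the medians ran from 121 to 162 bp and the shares from 17.4% to 23.9%. Where all 4 libraries had a peak, more summits lay within 50 bp, 31.2% to 34.1% over the 6 pairs of libraries. The median distances there were not shorter, at 144.5 to 158 bp. Those regions include 69 with a pileup above 50 in any library, which were not set apart here.

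The 12 C2-only regions with the highest fold enrichment, ranked by the lower of their values in the C2 libraries, had lower values of 7.90 to 9.12. In 6 C2-only regions both values reached 8, the same number as among the far fewer Empty-only regions, and 103 of the regions found in all 4 libraries had all values at 8 or more. First was a region inside Tbc1d22a, a gene for a Rab GTPase-activating protein family member (chr15:86325344-86326421), with a fold enrichment of 9.12 and 9.55 and a pileup of 12 and 15 in C2. A region inside Adam9, the gene of a membrane-anchored metalloprotease (chr8:25001929-25003206), had 9.09 and 9.64, with pileups of 12 and 17. A region inside Pdgfd, the gene of a platelet-derived growth factor (chr9:6446886-6448117), had 8.62 and 8.57, with pileups of 11 and 12. A region inside Arfgef2, the gene of an exchange factor for ARF GTPases in vesicle traffic (chr2:166830805-166831434), had 8.15 and 9.23, with pileups of 12 and 13. Of the other 8 regions, 3 lay inside the genes 2900092C05Rik, Zfp385c and 1700065L07Rik, and 2 lay within 10 kb of Nepro and Gm8270. The remaining 3, on chromosomes 13, 17 and 5, had no gene within 10 kb. Of the 12 regions, 5 lay under an H3K9me3 peak of the C2 iPS line, as did 28.2% of all C2-only regions and 21.4% of all 60069 regions. The count among these 12 was not tested.

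The 6 first Empty-only regions, ranked in the same way, had lower values of 8.43 to 11.8, a range that overlaps that of the C2-only regions and reaches above it. A region inside Dpp9, the gene of a dipeptidyl peptidase (chr17:56199764-56200325), had a fold enrichment of 11.8 and 19.9 and a pileup of 13 and 24 in Empty. A region near Gm13580 (chr2:60402522-60403074) had 9.54 and 17.5, and the region at the start of Zfp317 (chr9:19621551-19622048), whose window is printed above, had 9.71 and 13.2. Its summits lay 412 and 241 bp upstream of the start. The other 3 lay near the olfactory receptor genes Olfr854 and Olfr855, near Fcrl1, and on chromosome 1 away from any gene.

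The regions found in all 4 libraries split into a small set of very high pileup and a larger set like the rest. In 52 of the 548 regions the pileup was above 50 in all 4 libraries, with medians of 93.5 and 94 in C2, against 81.5 and 83 in Empty. The highest, on chromosome 2 (chr2:98666002-98667568), had pileups of 540 and 491 in C2, against 394 and 538 in Empty. One tag was kept per position and strand, so a pileup can reach at most 2 fragment lengths, which is 586 and 496 in C2 and 408 and 594 in Empty. The highest pileup was 92.2% and 99.0% of that ceiling in C2, against 96.6% and 90.6% in Empty. A second region, on chromosome 7 (chr7:145340692-145341606), had pileups of 504 and 474 in C2, against 364 and 468 in Empty. Neither lay inside a gene or within 10 kb of one.

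In those 52 regions the median ratio of mean pileup, C2 over Empty, was 1.10, where the ratio of tags kept was 1.92. The median ratio of fold enrichment was 0.640. In the 479 regions with a pileup of 50 or less in every library, the ratio of pileup was 1.27 and that of fold enrichment was 1.01. The part of the pileup ceiling in these ratios was not tested.

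At the 548 shared regions, 4 (0.73%) had a lower fold enrichment in C2 and 0 (0%) a higher one, by limma on log2 fold enrichment at a Benjamini-Hochberg adjusted p under 0.05, with 85 regions at an unadjusted p under 0.05. All 4 had a pileup above 50 in every library. The region of lowest p, on chromosome 14 (chr14:124801315-124802394), had a fold enrichment of 21.3 and 14.2 in C2, against 25.5 and 38.0 in Empty. The groups did not overlap there, and the difference on the log2 scale, C2 minus Empty, was -0.84 ± 0.21 (SE; limma adjusted p = 0.0238). The chromosome 2 region named above had 19.3 and 15.5 in C2, against 28.0 and 33.6 in Empty, a difference of -0.83 ± 0.21 (limma adjusted p = 0.0238). The other 2 lay on chromosomes 12 and 18, with differences of -0.91 and -0.82 (limma adjusted p = 0.0363 for each). The median difference over the 69 regions with a pileup above 50 in any library was -0.62, and over the other 479 it was 0.02. Without those 69 regions, limma called 0 of 479, with 45 at an unadjusted p under 0.05. No region was called with pileup per 1000000 tags kept, with the libraries centred on their medians, with the lowest 25% of regions left out, or with the replicate number as a block, so the 4 calls rest on the scaling and the fit used. Leaving out the first C2 library gave 78 calls, 8 higher and 70 lower in C2, with the lone C2 library assumed to vary like the Empty ones, and leaving out any other library gave 0.

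**Figure D4:**
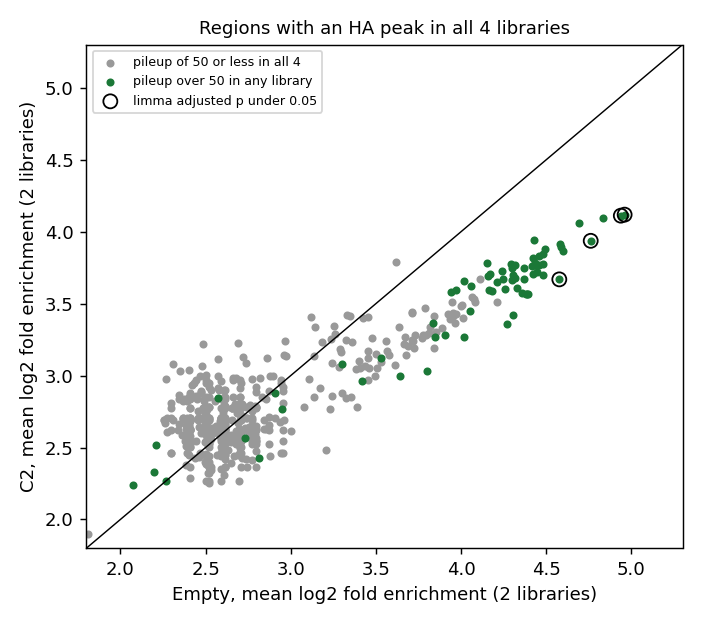
Mean log2 fold enrichment in C2 (vertical) against Empty (horizontal) for the 548 regions with an HA peak in all 4 libraries, each point a mean of 2 libraries, with the diagonal of equal values. Regions with a pileup over 50 in any library (green) fall mostly below the diagonal, and the 4 circled regions passed limma's threshold with differences of -0.82 to -0.91.

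The share of HA regions inside a gene was alike in the classes, while fewer Empty-only regions lay within 10 kb of a gene. Of C2-only regions 31.6% lay inside a gene, against 31.3% of Empty-only regions, 32.5% of regions found in all 4 libraries and 31.7% of all 60069. By library, 31.5% and 31.6% of C2 summits lay inside a gene, against 32.8% and 31.5% of Empty summits, and the groups overlapped (exact permutation test, two-sided p = 1). Inside a gene or within 10 kb of one lay 49.1% of C2-only regions, 44.9% of Empty-only regions and 50.5% of regions found in all 4 libraries. By library that share was 47.90% and 47.45% of C2 peaks, against 47.86% and 46.13% of Empty peaks, so the groups overlapped. More than 10 kb from any gene lay the larger part of the rest: 39.1% of C2-only regions, 44.2% of Empty-only regions and 37.4% of regions found in all 4 libraries were 10 to 100 kb away, and 11.8%, 10.9% and 12.04% were over 100 kb away. H3K27ac regions of the C2 iPS line, for scale, lay inside a gene in 67.4% of cases and over 100 kb away in 0.946%.

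Start sites were taken from the promoter windows, which cover 79.6% of the protein-coding genes and none on chromosome 18, so shares near a start are lower limits for HA and H3K27ac alike. Within 1 kb of a listed start site lay 6 of 2476 C2-only regions (0.242%), 3 of 718 Empty-only regions (0.418%) and 1 of 529 regions found in all 4 libraries (0.189%), against 23.9% of H3K27ac regions. By library, the share of peaks within 1 kb was 0.226% and 0.246% in C2, against 0.175% and 0.166% in Empty. Both C2 values were higher, at the smallest possible p of the exact permutation test (two-sided p = 0.333). HA peaks of any library touched 40 of 31396 promoter windows, while H3K27ac of the C2 iPS line covered 11490 (36.6%). The HA-touched windows had a median GC content of 47.2%, against 53.0% over all windows. By library it was 58.5% on 6 windows and 47.3% on 27 in C2, against 47.0% on 4 and 45.8% on 12 in Empty. The C2 libraries thus lay on either side of the value over all windows.

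HA regions lay at a small share of genes. The lists of genes were chosen with earlier results of these data known, and a gene was counted when a region lay inside it or within 10 kb. C2-only regions reached 724 of 20661 protein-coding genes (3.50%), Empty-only regions 220 (1.06%), and regions found in all 4 libraries 178 (0.862%). The genes they reached were long, with a median length of 107131 bp for C2-only and 157369 bp for Empty-only, against 17491 bp for all protein-coding genes.

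Among 34 genes of core and naive pluripotency, 0 had a C2-only region, which at this list size is near the 3.50% over all protein-coding genes, and 6 (17.6%) had an HA region of any kind, against 23.1% of all protein-coding genes. Nanog, a homeobox factor of the pluripotent state, had 1 region in the first C2 library and another, not overlapping it, in the second, and none in Empty. Esrrb and Tet2 each had 1 region, with a peak in the second C2 library only. Nr5a2 had 1 region, with a peak in the first Empty library only. Pou5f1, which encodes Oct4, had none in any library, nor did the genes of the 3 transduced factors, Sox2, Klf4 and Myc. Rex2 had 5 regions, 4 with a peak in the second C2 library and 2 with one in the first Empty library. The pluripotency genes with a region in both groups included Gdf3, a TGF-beta family ligand, with peaks in the second C2 library and both Empty libraries. The 6 genes with a region were named after their counts were seen.

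Among 36 fibroblast and mesenchymal genes, 1 (2.78%, against 3.50% of all protein-coding genes) had a C2-only region, Meox2, a homeobox gene of mesoderm. That region (chr12:37158340-37160018) lay inside the gene, 50639 bp from the nearest listed start site and under an H3K9me3 peak of the C2 iPS line. Its fold enrichment was 6.46 and 7.25 in C2, with pileups of 8 and 10. Meox2 had 10 regions in all, of which 7 held a peak of the second C2 library and 5 a peak of the second Empty library. Of the 24 epithelial, 20 H3K9 methylation, 18 endoderm and 14 housekeeping genes, 0 had a C2-only region, and 1, 5, 6 and 1 had a region of any kind. Those are 4.17%, 25%, 33.3% and 7.14% of the lists, against 23.1% of all protein-coding genes. Genes with a region found in all 4 libraries, named after their counts were seen, were Cdh2, which encodes N-cadherin, Kdm4a, an H3K9 and H3K36 demethylase, and the endoderm genes Dab2, an endocytic adaptor, and Lama1, a laminin chain. Over all protein-coding genes the share with such a region was 0.862%. The 4 genes were 220370, 43134, 140928 and 125519 bp long, against a median of 17491 bp over all protein-coding genes.

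HA regions differed in how often they lay in what was heterochromatin of the iPS cells. Of C2-only regions 28.2% (721 of 2560) overlapped an H3K9me3 peak found in both libraries of the C2 iPS line, against 16.3% of Empty-only regions (121 of 744), 37.0% of regions found in all 4 libraries (203 of 548) and 19.2% of regions found in 1 library. Region width differed too, with medians of 526.5 bp, 459.5 bp, 834.5 bp and 297 bp. At the summits alone, which have no width, the share was 25.9% and 26.0% in C2-only regions by the summits of either C2 library, 14.7% in Empty-only regions and 32.8% to 34.5% in regions found in all 4 libraries.

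By library, 24.5% and 21.5% of C2 summits lay under H3K9me3 of the C2 iPS line, against 19.5% and 20.7% of Empty summits. The groups did not overlap, and the means were 23.0% ± 2.15 in C2 and 20.1% ± 0.832 in Empty (SD, n = 2 each; exact permutation test, two-sided p = 0.333, the smallest possible). Among each library's 1000 strongest peaks the share was 29.3% and 36.5% in C2, against 21.1% and 24.1% in Empty, a mean difference of 10.3 percentage points with the same p from the exact permutation test. The median widths of those peaks were 466 and 468 bp in C2, against 298.5 and 512 bp in Empty. The part of peak width in these shares was not tested.

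Among peaks with a -log10 q-value of at least 5, H3K9me3 lay over 36.5% of 1267 C2-only regions, 20.0% of 140 Empty-only regions and 24.3% of 185 regions found in all 4 libraries. C2-only minus shared regions was thus -8.88 percentage points over all peaks and 12.1 points at that threshold, a change of direction. Of those 185 regions 67 had a pileup above 50, against 6 of the 1267. The order of C2-only above Empty-only also held with the H3K9me3 peaks of the other iPS lines. With the line made with Oct4, Sox2, Klf4 and c-Myc (OSKM) the shares were 37.1% and 25.5%, and with the line made with another artificial factor set (C3) they were 25.4% and 15.7%. Summit shares by library overlapped between the groups with OSKM peaks, at 34.25% and 30.43% in C2, against 27.01% and 31.43% in Empty. They did not overlap with C3 peaks, at 22.8% and 20.6% in C2, against 18.6% and 19.1% in Empty. The order of C2-only and Empty-only regions is a description over regions of 1 pair of libraries each, and was not tested.

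H3K27ac lay over a small share of HA regions in every class, and over 2.81% of all 60069. The H3K27ac regions of the C2 iPS line covered 71.1 Mb of chromosomes 1 to 19, against 50.8 Mb for its H3K9me3 regions. Whether the shares differ from those of positions taken at random was not tested. Of C2-only regions 3.40% (87 of 2560) overlapped an H3K27ac peak of the C2 iPS line, against 1.48% of Empty-only regions (11 of 744) and 3.47% of regions found in all 4 libraries (19 of 548). By library, 2.06% and 2.37% of C2 summits lay under H3K27ac, against 1.69% and 1.72% of Empty summits. At summits the groups did not overlap, with a mean difference of 0.508 percentage points (exact permutation test, two-sided p = 0.333). By whole peaks they overlapped, with 2.94% and 3.08% in C2, against 1.85% and 3.06% in Empty. They also overlapped among each library's 1000 strongest peaks, with 3.7% and 3.9% in C2, against 2.5% and 4.4% in Empty.

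**Figure D5:**
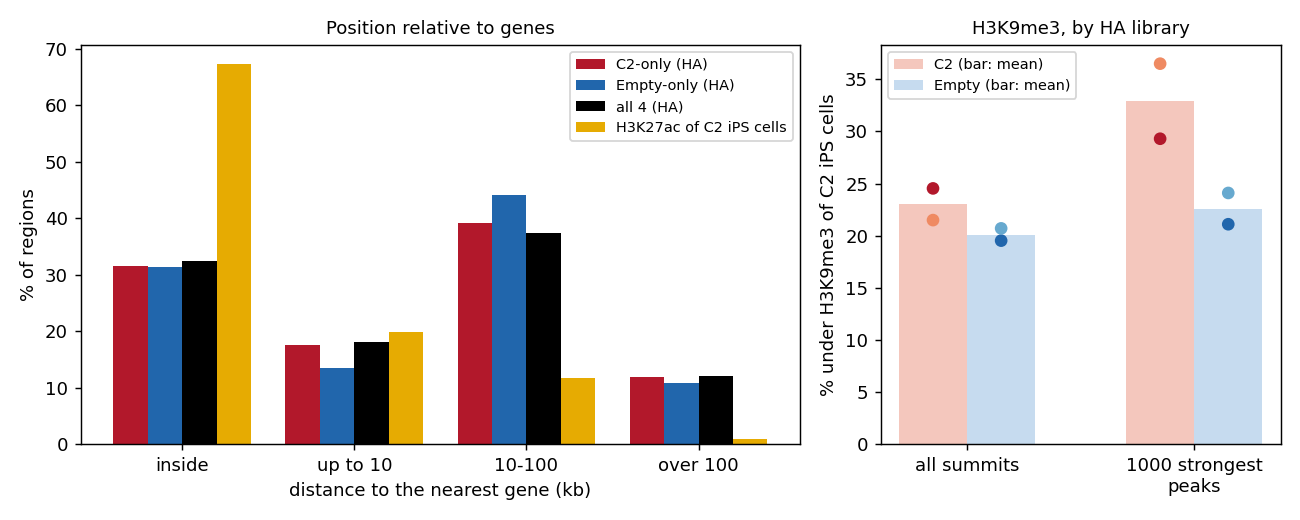
Left, percent of C2-only, Empty-only and shared HA regions and of H3K27ac regions of the C2 iPS line by distance to the nearest gene (kb); right, percent of HA summits, and of each library's 1000 strongest HA peaks, under H3K9me3 of the C2 iPS line, with bars for group means and points for the 2 libraries of a group. HA regions lie inside genes less often than H3K27ac regions, with 31.6% of C2-only regions against 67.4%, and the C2 points for the strongest peaks (29.3% and 36.5%) lie above the Empty points (21.1% and 24.1%).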

How the data were processed

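HA was profiled by ChIP-seq in 2 C2 and 2 Empty libraries, with histone peaks of 3 iPS lines used for position. The submitters' processing notes name CASAVA 1.8.2, Bowtie2 2.2.5, SAMtools 1.3, DiffBind 1.16.2 and mm10. Per the file headers, every library had its own peak call against 1 input, by MACS 2.1.1.20160309 (2.1.0.20150731 for histones) at a q-value of 0.01, band width 300 bp, tag size 51 bp and 1 tag kept per position. In the deposited files the pileup is a signal, significance is a -log10 p-value and -log10 q-value, and fold enrichment is a ratio over local background, with a constant added to the pileup. How separate inputs were normalized is not given in the sources used here.

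From these, peaks on chromosomes 1 to 19 were merged on an overlap of 1 bp with Python 3.11.15, NumPy 2.4.6, pandas 2.3.3 and matplotlib 3.10.9. Each region took the values of its peak of highest -log10 p-value in a library. Regions with a value in all 4 libraries were tested in R 4.3.3 by limma 3.58.1, whose trend option was on, using log2 fold enrichment with no offset. On simulated data for that comparison, over 548 regions with 200 changed, 91.85% of changes of 1 and 30.55% of changes of 0.5 on the log2 scale were recovered, and 2.80% of calls were false. Those percentages describe that generated data only, and recovery and false calls among the measured regions were not tested. Single values were tested with an exact permutation test over libraries. Histone regions were those with a peak in both libraries of a line. Gene extents and promoter windows came from RefSeq (GRCm38.p6).

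Named were the 12 C2-only, 6 Empty-only and 6 shared regions highest by the lower fold enrichment in the defining libraries, the limma calls, and genes of fixed lists with a C2-only region. Other genes of the lists were named with their counts known. Members, lists and tests were chosen with earlier results of these data known. Alternatives were other peak thresholds and ranks, other scalings, regions around summits, other histone lines, a replicate block and leaving out each library. Input samples and the authors' region tables were not used here.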

Additional observations from a re-analysis of the deposited data

How the results depend on the processing

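Depth limits these comparisons: at most 3896935 tags were kept in a library, and a region without a peak has no value. The main counts of 2560 C2-only, 744 Empty-only and 548 shared regions and the share of 46.6% of both-C2 regions with an Empty peak depended on the peak threshold. With a -log10 q-value of at least 5 they were 1267, 140, 185 and 29.5%. With regions of 200 bp around summits the shared count was 261 and the share 35.6%. With a fold enrichment of at least 5 the share was 42.2%. With equal numbers of peaks the C2-only count was 869 and the shared count 239. Leaving out each library, which redefines the classes on fewer libraries, gave 2983 to 29063 C2-only, 878 to 10823 Empty-only and 622 to 1782 shared regions and a share of 19.7% to 37.4%. C2-only regions outnumbered Empty-only regions under each of these peak settings, but not among the 500 strongest peaks of each library (12 against 13). The order also reversed without the first Empty library (2983 against 10823) and without the second (3738 against 5331). There the Empty class needs a peak in 1 library only.

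For equal numbers of strongest peaks, overlap within groups exceeded overlap between groups under all 8 alternatives, by 0.508 to 2.09 percentage points, with 1.725 at 500 peaks and 2.0875 when ranked by pileup. Ranked by fold enrichment, the mean difference of 0.75 came from the Empty pair (17.5%), while the C2 pair (13.15%) equalled the lowest mixed pair. No value without a library was possible there, since a pair within each group is needed. The limma count of 4 became 0 with pileup per 1000000 tags kept, with libraries centred on their median, with the lowest 25% of regions left out, with log2 pileup without scaling, and with the regions of pileup over 50 left out (the last 2 added after the data were seen). Regions at an unadjusted p under 0.05 then numbered 106, 76, 87, 132 and 45. Leaving out each library gave 0 to 78 calls. Pileup per 1000000 tags kept moved the median difference of all shared regions to -0.59 on the log2 scale, and pileup without scaling moved it to 0.32. With the replicate number as a block (replicate block) limma called 0, with 29 at an unadjusted p under 0.05. Deviations of same-numbered libraries from their group means correlated at 0.018 over the shared regions, and the labels name nothing that the numbers share. The same-numbered libraries do share an input library, which enters their fold enrichments.

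C2-only minus shared regions differed by -0.919 percentage points in the share inside a gene, by -2.66 with a -log10 q-value of at least 5, by -1.48 within 10 kb of a gene, and by -1.20 to -0.486 without each library. For H3K9me3 the difference was -8.88 points, 12.1 with a -log10 q-value of at least 5, -4.39 with C3 peaks, and -14.1 to -3.72 without each library. For H3K27ac it was -0.0687 points, 2.57 with a -log10 q-value of at least 5, 1.155 with OSKM peaks, 0.880 with C3 peaks, 0.258 at summits (added after the data were seen), and -2.45 to 1.25 without each library. Apart from the changes in regions tested and in the classes, the causes were not tested.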
